A study of Mus musculus with 8 samples.

Results

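The natriuretic, endothelin and angiotensin peptide systems were followed through 10 genes, which were taken by name from the 54532 genes of the deposited expression table: the peptide genes *Nppa*, *Nppb* and *Edn1*, the receptor genes *Npr1*, *Npr3*, *Ednra*, *Ednrb*, *Agtr1a* and *Uts2r*, and the enzyme gene *Ace*. They were selected by name as a family, with their values in these 8 libraries already known, so their own levels and differences are given as a description without p-values. Levels are in FPKM (fragments mapped to a gene, scaled to gene length and library size), a scale per length on which genes can be set side by side.

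These peptides act on vessels, heart muscle and the fibroblasts between them. Atrial and B-type natriuretic peptide, encoded by *Nppa* and *Nppb*, raise cyclic GMP through the receptor encoded by *Npr1* and are cleared by the receptor encoded by *Npr3*, and they are known in the heart as markers of wall stress and of the fetal muscle program. Endothelin-1 and angiotensin II constrict vessels and promote scar formation, and angiotensin II is made from its precursor by the angiotensin-converting enzyme ACE. The urotensin II receptor, encoded by *Uts2r*, belongs to a further vasoconstrictor system.

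The libraries came from cardiac fibroblasts of mouse hearts with myocardial infarction (MICFs), isolated from the infarcted area of C57BL/6 mice. Every group carried the same tetracycline-inducible lentiviruses, for MGT (a single construct for *Mef2c*, *Gata4* and *Tbx5*), *Myocd*, *Sall4* and eGFP, a genotype labelled as MGTMyoS overexpression, and all received doxycycline. In the *in vivo* groups the infected cells were injected into the left ventricle of C57BL/6 mice at the time of coronary ligation. The recipients were given tacrolimus, methylprednisolone and mycophenolate mofetil. In the *in vitro* groups a portion of the infected cells stayed in culture, where the reprogramming medium of the study held the TGF-β receptor inhibitor SB431542 and the JAK inhibitor baricitinib. Residence in the heart, the drugs given to the recipients and the culture medium cannot be told apart. Cells were sorted on eGFP, not on the factors themselves, on day 7 (1 week) or day 14 (2 weeks), with 2 libraries in each of the 4 groups. The labels do not say whether the 2 libraries of a group came from separate animals or cultures, so every error and p-value covers the spread between these libraries, which may be technical.

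Between 12304242 and 14546904 fragments lay on genes in each library. All 5 transduced factors were at 0.5 FPKM or more in every library, with a summed level of 55.1 to 58.1 FPKM *in vivo* and 83.2 to 111 FPKM *in vitro*. *Gata4* made up most of that sum (35.9 to 38.0 FPKM *in vivo* and 52.6 to 73.2 FPKM *in vitro*). At each week 4 of the 5 lay lower *in vivo* and *Mef2c* overlapped. In these levels per gene, RNA of the constructs and of the cells' own genes cannot be told apart. All 10 fibroblast markers reached 0.5 FPKM in all libraries, and their sum was 10193 to 13277 FPKM *in vivo* and 2134 to 3255 FPKM *in vitro*. *Col1a1* alone gave 2762 to 4709 FPKM *in vivo* and 363 to 862 FPKM *in vitro*. Of the 10 fibroblast markers, 7 lay higher *in vivo* at 1 week, 2 lower (*Ddr2* and *Thy1*) and 1 overlapped (*Pdgfra*). At 2 weeks 8 lay higher, 1 lower (*Thy1*) and 1 overlapped (*Ddr2*). The sorted cells also held RNA of other cell types, since all 10 macrophage markers reached 0.5 FPKM in every library, with a sum of 1781 to 2839.9 FPKM *in vivo* and 4474 to 5597 FPKM *in vitro*. *Lyz2* made up most of that sum (975 to 1453 FPKM *in vivo* and 2921 to 4014 FPKM *in vitro*), and of the 10 markers 5 lay lower *in vivo*, 1 higher (*Fcgr1*) and 4 overlapped at 1 week, with 7, 2 and 1 at 2 weeks. In such bulk libraries fewer cells of a type and less RNA per cell cannot be told apart.

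The promoters of the 3 peptide genes and of *Ace* are shown because they carry every match found to the sites of factor families that were transduced or that position transcription. Each window is from RefSeq on GRCm38.p6 and runs from 250 bases before to 50 bases after a RefSeq start site, which can lie away from the first base of the gene model in the files. They are chr4:148000472-148000771 (plus strand) for *Nppa*, chr4:147985650-147985949 (plus strand) for *Nppb*, chr13:42301226-42301525 (plus strand) for *Edn1* and chr11:105967698-105967997 (plus strand) for the first of the 2 *Ace* windows. Capitals mark the matches.
Nppa: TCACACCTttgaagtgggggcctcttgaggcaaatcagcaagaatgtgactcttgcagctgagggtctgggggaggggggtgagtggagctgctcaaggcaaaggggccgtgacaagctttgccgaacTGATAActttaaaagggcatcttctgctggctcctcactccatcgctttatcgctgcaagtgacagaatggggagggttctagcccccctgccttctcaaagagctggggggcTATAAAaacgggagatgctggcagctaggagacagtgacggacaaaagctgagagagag
Nppb: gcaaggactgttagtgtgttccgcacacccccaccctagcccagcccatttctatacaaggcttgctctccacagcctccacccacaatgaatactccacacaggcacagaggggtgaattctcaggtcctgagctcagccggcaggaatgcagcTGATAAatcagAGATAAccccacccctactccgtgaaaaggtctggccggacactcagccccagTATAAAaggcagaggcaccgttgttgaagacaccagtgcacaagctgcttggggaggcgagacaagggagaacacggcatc
Edn1: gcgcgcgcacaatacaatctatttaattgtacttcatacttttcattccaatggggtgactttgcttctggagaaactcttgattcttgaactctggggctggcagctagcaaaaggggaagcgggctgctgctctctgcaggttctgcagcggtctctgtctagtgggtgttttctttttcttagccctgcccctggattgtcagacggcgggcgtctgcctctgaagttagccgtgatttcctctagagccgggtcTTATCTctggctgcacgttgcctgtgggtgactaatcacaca
Ace: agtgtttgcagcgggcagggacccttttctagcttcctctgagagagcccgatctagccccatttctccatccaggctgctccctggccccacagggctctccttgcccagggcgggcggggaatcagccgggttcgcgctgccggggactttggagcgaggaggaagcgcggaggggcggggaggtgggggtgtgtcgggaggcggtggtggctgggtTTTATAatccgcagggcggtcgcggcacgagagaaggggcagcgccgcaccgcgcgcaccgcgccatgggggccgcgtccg

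The motifs searched on both strands were AGATAA (bound by the GATA family, that of the transduced *Gata4*), TGATAA (the same family), AGGTGTGA (T-box family, that of *Tbx5*), AGGTGT (the core of the longer T-box letters, which contain it), the MEF2 site (the family of *Mef2c*), the CArG box (bound by SRF, the partner of myocardin) and TATAAA. *Nppa* held TGATAA at -122 to -117 from the start site, the reverse complement of AGGTGTGA at -250 to -243, and TATAAA at -9 to -4. *Nppb* held TGATAA at -95 to -90, AGATAA at -84 to -79 and TATAAA at -31 to -26. The *Edn1* window held AGATAA on the minus strand at 9 to 14, and the *Ace* window held TATAAA on the minus strand at -31 to -26. No match to any of these motifs lay in the windows of *Npr1*, *Npr3*, *Uts2r*, *Ednra* and *Ednrb* or in the second *Ace* window, and none of the 10 windows held the MEF2 site or the CArG box. Windows were found for 9 of the 10 genes, *Agtr1a* being the exception. Among 32851 RefSeq promoters of this length, 18.6% held at least 1 of the GATA sites, 1.28% AGGTGTGA, 13.7% AGGTGT, 0.557% the MEF2 site, 1.63% the CArG box and 13.6% TATAAA. A match is a description of these letters and not a site that was tested.

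**Figure D1:**
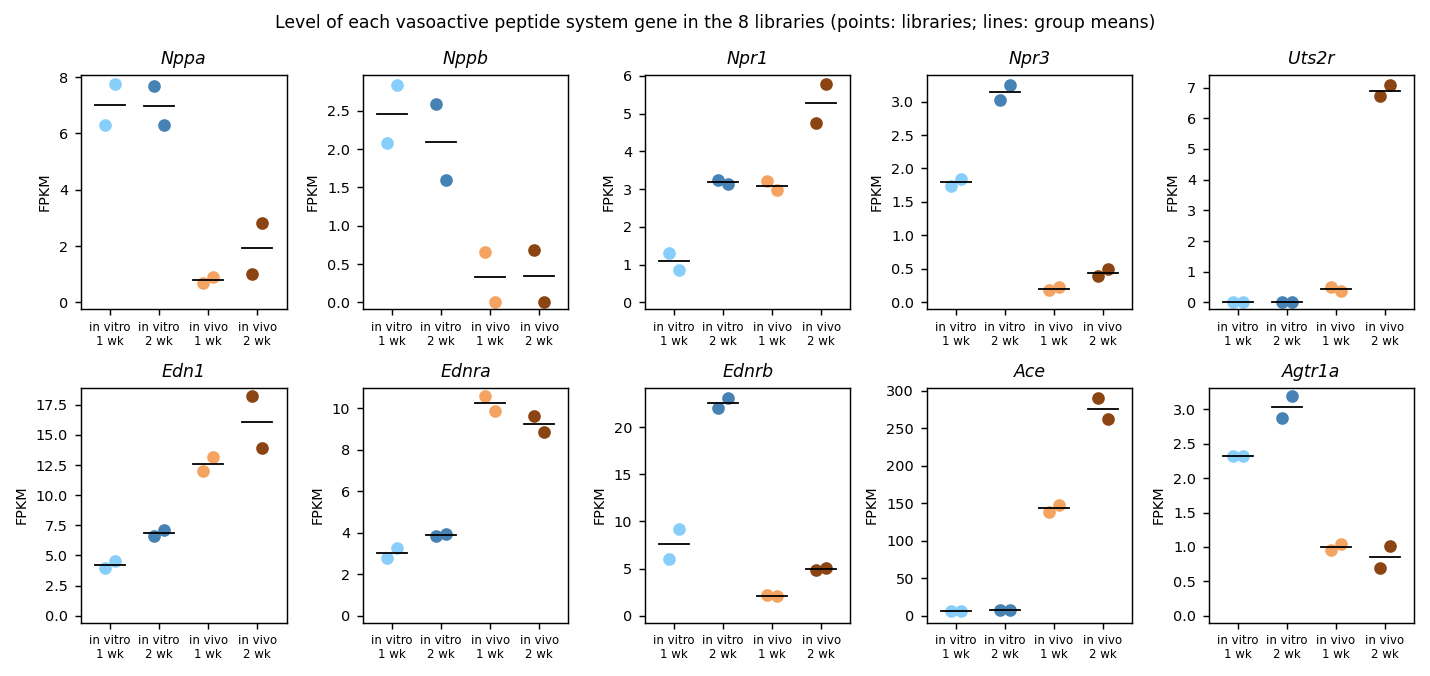
Level of each of the 10 genes in FPKM (vertical axes, linear, each with its own range) in the 4 groups, with 1 point per library and a line at the mean of the 2 libraries of a group. *Ace*, *Edn1*, *Ednra*, *Npr1* and *Uts2r* lie higher in the *in vivo* libraries of the same week, and *Nppa*, *Nppb*, *Npr3*, *Ednrb* and *Agtr1a* lie lower.

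The order of the levels differed between transplanted and cultured cells. *In vivo*, *Ace* stood first with a mean of 144 FPKM at 1 week and 276 FPKM at 2 weeks, followed by *Edn1* (12.6 and 16.1 FPKM) and *Ednra* (10.2 and 9.24 FPKM), and none of these neighbours overlapped in their 2 libraries. At the low end *in vivo*, *Uts2r*, *Nppb* and *Npr3* overlapped in order at 1 week, as did *Npr3* and *Nppb* at 2 weeks. *In vitro*, *Ednrb* stood first with a mean of 7.60 FPKM at 1 week, where it overlapped *Nppa*, and of 22.6 FPKM at 2 weeks, where it overlapped no other gene of the family. *Ace*, *Nppa* and *Edn1* came next *in vitro*, each overlapping the next at 2 weeks but not at 1 week, and *Uts2r* stood last with no fragment in any of the 4 cultured libraries.

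Of the peptide genes, *Nppa* (ENSMUSG00000041616, chr4:148000722-148002079, plus strand, mm10) gave 0.691 and 0.887 FPKM in the *in vivo* libraries at 1 week and 1.02 and 2.83 FPKM at 2 weeks. *In vitro* it gave 6.31 and 7.74 FPKM at 1 week and 7.69 and 6.29 FPKM at 2 weeks. All 4 cultured libraries were therefore above all 4 from the heart, and the cultured levels of the 2 weeks overlapped. The level in transplanted cells was 8.02-fold lower at 1 week (log2 -3.00 ± 0.41, SE, on the log2(FPKM + 0.1) scale used for all folds below) and 3.89-fold lower at 2 weeks (log2 -1.96 ± 0.41). The *in vivo* values rested on 7 and 10 fragments at 1 week and on 10 and 27 at 2 weeks, against 74 to 100 in culture. The second *in vivo* library at 2 weeks stood above the first, and the antisense gene Gm13054, which overlaps *Nppa*, also had its highest level there (0.552 FPKM, against 0 to 0.163 FPKM in the others). Whether fragments were counted by strand is not given in the sources used here, so reads of the pair cannot be told apart.

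*Nppb* (ENSMUSG00000029019, chr4:147985788-147987205, plus strand) lies 13516 bases before *Nppa* on the same strand and was rarer. It gave 0.656 FPKM and 0 *in vivo* at 1 week, 0.681 FPKM and 0 *in vivo* at 2 weeks, 2.08 and 2.83 FPKM *in vitro* at 1 week, and 2.59 and 1.60 FPKM *in vitro* at 2 weeks. Heart and culture did not overlap, with 6 fragments or none *in vivo* and 17 to 33 *in vitro*, while the weeks overlapped within each setting. With 1 library of each *in vivo* group at 0 the fitted differences had wide errors (log2 -3.20 ± 1.16 at 1 week and -2.94 ± 1.16 at 2 weeks). *Nppa* exceeded *Nppb* in each cultured library, by 2.74-fold to 3.93-fold in FPKM. The next gene on the other side of *Nppa*, *Clcn6*, 2180 bases away, stayed between 2.55 and 3.53 FPKM in all 8 libraries.

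Of the 10 cardiomyocyte markers, 8 lay lower *in vivo* than in culture with no overlap at both weeks, as did the 2 natriuretic peptide genes. *Pln* and *Myl2*, at 3.31 FPKM or less in every library, lay higher. Of the 8 lower ones, *Myh7* and *Ttn* were lower in level still, at 0.688 and 0.304 FPKM or less in every library. The summed level of the 10 markers was 15.7 to 18.7 FPKM *in vivo* at 1 week and 26.6 to 46.0 FPKM at 2 weeks. *In vitro* it was 159 to 180.5 FPKM at 1 week and 1026 to 1217 FPKM at 2 weeks. Of these markers 5 to 7 reached 0.5 FPKM in any library, and *Myh7* was at 0 in 1 *in vivo* library at 1 week. The marker sum in culture was higher at 2 weeks than at 1 week, whereas *Nppa* and *Nppb* overlapped between those weeks. The 8 mesothelial markers, all above 0.5 FPKM throughout, also moved with these genes, at 18.5 to 37.6 FPKM *in vivo*, 259 to 270.2 FPKM *in vitro* at 1 week and 576 to 586 FPKM *in vitro* at 2 weeks. The part of either list in the natriuretic peptide levels was not tested.

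The signalling and clearance receptors of these peptides went opposite ways at 1 week. *Npr1*, the guanylyl cyclase receptor (ENSMUSG00000027931, chr3:90450591-90465866, minus strand), gave 3.21 and 2.97 FPKM *in vivo* and 1.32 and 0.854 FPKM *in vitro* at 1 week, then 4.76 and 5.79 FPKM *in vivo* and 3.25 and 3.15 FPKM *in vitro* at 2 weeks. Transplanted cells were higher in each week without overlap, by 2.74-fold at 1 week (log2 1.46 ± 0.20) and 1.62-fold at 2 weeks (log2 0.70 ± 0.20). In culture the 2 week level was 2.84-fold that of 1 week (log2 1.51 ± 0.20).

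*Npr3*, the clearance receptor (ENSMUSG00000022206, chr15:11839896-11907287, minus strand), gave 0.182 and 0.229 FPKM *in vivo* and 1.74 and 1.85 FPKM *in vitro* at 1 week. The 2 week values were 0.396 and 0.492 FPKM *in vivo* and 3.03 and 3.25 FPKM *in vitro*. It was 6.23-fold lower *in vivo* at 1 week (log2 -2.64 ± 0.20) and 5.98-fold lower at 2 weeks (log2 -2.58 ± 0.20), and all 4 groups were apart from each other. Within a library, *Npr1* stood at 17.7 and 13.0 times the FPKM of *Npr3* *in vivo* at 1 week and at 12.0 and 11.8 times *in vivo* at 2 weeks. In culture it stood at 0.756 and 0.461 times at 1 week and 1.07 and 0.970 times at 2 weeks. The libraries from the heart thus held far more *Npr1* than *Npr3* mRNA, and in the cultured libraries *Npr1* was similar to *Npr3* or lower.

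The endothelin genes split between peptide and A receptor on one side and B receptor on the other. *Edn1*, the endothelin-1 precursor (ENSMUSG00000021367, chr13:42301476-42307990, plus strand), gave 12.0 and 13.2 FPKM *in vivo* and 3.92 and 4.51 FPKM *in vitro* at 1 week. At 2 weeks these were 18.2 and 13.9 FPKM *in vivo* and 6.59 and 7.15 FPKM *in vitro*. It was 2.96-fold higher *in vivo* at 1 week (log2 1.56 ± 0.14) and 2.30-fold higher at 2 weeks (log2 1.20 ± 0.14), with no overlap. The antisense gene Gm47118 lies over *Edn1* and ranged from 0 to 1.99 FPKM, with the top value in the *in vivo* library at 2 weeks that also had the top *Edn1* value.

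*Ednra*, the A receptor of smooth muscle and fibroblasts (ENSMUSG00000031616, chr8:77663031-77724464, minus strand), gave 10.6 and 9.87 FPKM *in vivo* and 2.80 and 3.26 FPKM *in vitro* at 1 week. At 2 weeks it gave 9.63 and 8.86 FPKM *in vivo* and 3.83 and 3.92 FPKM *in vitro*. Transplanted cells were higher by 3.30-fold at 1 week (log2 1.72 ± 0.10) and 2.35-fold at 2 weeks (log2 1.23 ± 0.10).

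*Ednrb*, the B receptor, known from endothelium and from clearance of the peptide (ENSMUSG00000022122, chr14:103814625-103844402, minus strand), gave 2.18 and 2.07 FPKM *in vivo* and 5.97 and 9.23 FPKM *in vitro* at 1 week. At 2 weeks it gave 4.86 and 5.07 FPKM *in vivo* and 22.0 and 23.1 FPKM *in vitro*. It was lower *in vivo* by 3.38-fold at 1 week (log2 -1.76 ± 0.18) and 4.48-fold at 2 weeks (log2 -2.16 ± 0.18). Its level at 2 weeks exceeded that at 1 week in both settings, by 2.28-fold *in vivo* (log2 1.19 ± 0.18) and 3.01-fold *in vitro* (log2 1.59 ± 0.18).

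Because the receptors moved in opposite directions, their ratio separated the settings. *Ednra* stood at 4.84 and 4.77 times the FPKM of *Ednrb* *in vivo* at 1 week and at 1.98 and 1.75 times at 2 weeks. In culture the ratio was 0.469 and 0.354 at 1 week, with 0.174 and 0.170 at 2 weeks. The A receptor mRNA was in excess in all 4 libraries from the heart and the B receptor mRNA in all 4 from culture.

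**Figure D2:**
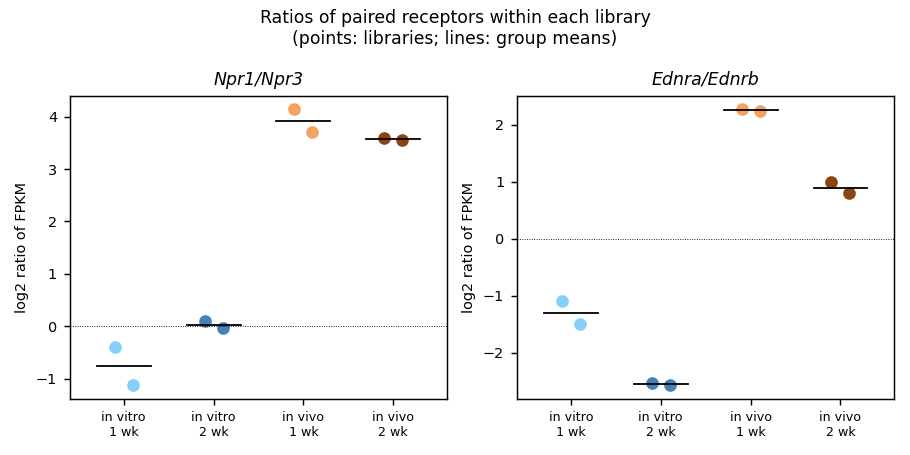
Log2 ratio of FPKM (vertical axes) of *Npr1* to *Npr3* and *Ednra* to *Ednrb* within each library, with 1 point per library, a line at the group mean and a dotted line where both genes are equal. In both panels the 4 *in vivo* libraries lie above the 4 *in vitro* libraries.

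All 10 endothelial markers lay higher in the sorted cells from the heart at 1 week, and 9 of them at 2 weeks. *Tek* overlapped at 2 weeks (19.5 and 18.4 FPKM *in vivo* against 18.4 and 17.6 FPKM *in vitro*). The sum of the 10 was 108 to 117 FPKM *in vivo*, with all 10 at 0.5 FPKM or more. *In vitro* it was 23.3 to 24.4 FPKM with 7 or 8 markers at 1 week and 54.5 to 64.1 FPKM with 9 markers at 2 weeks, and none was at 0. They moved with *Edn1*, *Ace* and *Npr1* between heart and culture and opposite to *Ednrb*. The 8 mural cell markers, all above 0.5 FPKM, had a sum of 212 to 239.8 FPKM *in vivo* and 194 to 244 FPKM *in vitro*, of which *Pdgfrb* made up 67.1 to 86.4 FPKM. These sums hid markers that moved both ways, since at 1 week 5 of the 8 lay higher *in vivo* with no overlap (*Rgs5* at 66.0 and 78.6 FPKM against 4.16 and 5.73 FPKM) and 3 lower (*Notch3* at 19.8 and 21.1 FPKM against 56.5 and 62.8 FPKM). At 2 weeks 4 lay higher and 4 lower. Macrophage, fibroblast and mesothelial sums, given above, differed between the settings as well, and the part of these lists in the levels of the receptors, of *Edn1* and of *Ace* was not tested.

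*Ace* (ENSMUSG00000020681, chr11:105967945-105989964, plus strand) was the most abundant gene of the family in the heart. It gave 139 and 148 FPKM *in vivo* and 5.93 and 6.05 FPKM *in vitro* at 1 week. Its values at 2 weeks were 289.9 and 262 FPKM *in vivo* and 7.66 and 7.76 FPKM *in vitro*. The *in vivo* levels rested on 8597 to 17302 fragments a library and the cultured ones on 478 to 560. Transplanted cells were higher by 23.6-fold at 1 week (log2 4.56 ± 0.07) and 35.3-fold at 2 weeks (log2 5.14 ± 0.07), and *in vivo* the 2 week level was 1.92-fold that of 1 week (log2 0.94 ± 0.07).

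*Agtr1a*, the gene of a type 1 angiotensin II receptor (ENSMUSG00000049115, chr13:30336441-30382867, plus strand), went the other way. It gave 0.950 and 1.05 FPKM *in vivo* and 2.33 in both *in vitro* libraries at 1 week. The 2 week values were 0.700 and 1.01 FPKM *in vivo* and 2.88 and 3.19 FPKM *in vitro*. The level *in vivo* was 2.22-fold lower at 1 week (log2 -1.15 ± 0.19) and 3.33-fold lower at 2 weeks (log2 -1.74 ± 0.19), with no overlap between heart and culture, and the *in vivo* levels of the 2 weeks overlapped.

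*Uts2r*, the urotensin II receptor (ENSMUSG00000039321, chr11:121160271-121161973, plus strand), was found only in the libraries from the heart. It gave 0.502 and 0.361 FPKM *in vivo* at 1 week, 6.71 and 7.07 FPKM *in vivo* at 2 weeks, and 0 in all 4 cultured libraries. In fragments this was 10 and 8 at 1 week and 129 and 133 at 2 weeks, against none in culture. Taking 3 fragments in each cultured library as the most that a count of 0 allows, a limit for counting error alone, the 1 week cells *in vivo* held at least 3.71-fold more, and the 2 week cells at least 53.6-fold more. Within the heart the 2 week level was 13.3-fold that of 1 week (log2 3.73 ± 0.34). The gene entered the fit through its *in vivo* libraries alone, as *Npr3* did through the cultured ones. Its ligands were close to absent, with *Uts2* at 0 to 4 fragments in every library and *Uts2b* at 0 throughout.

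To place these differences among all genes, a gene was called when its adjusted p in limma was below 0.01 and its log2 fold change exceeded 1 in size, over the 15708 genes with at least 0.5 FPKM in 2 or more libraries. *In vivo* against *in vitro* at 1 week, 5 of the 10 genes were called higher (*Ace*, *Edn1*, *Ednra*, *Npr1* and *Uts2r*), where 7.79% of all tested genes were, and 4 lower (*Agtr1a*, *Ednrb*, *Nppa* and *Npr3*), where 5.07% were. At 2 weeks 4 were called higher (*Ace*, *Edn1*, *Ednra* and *Uts2r*), against 9.02% of all genes, and the same 4 lower, against 8.05%. *Nppb* was called at neither week. With the scaling between libraries undone, all genes split into 906 higher and 1558 lower at 1 week, against 1224 and 796 as deposited, and into 1032 and 2087 at 2 weeks, against 1417 and 1265, while the 10 split into 5 and 4 and into 2 and 4. Since the family was chosen from these values, nothing is read from these shares.

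Between the weeks fewer genes differed. *In vivo*, 2 of the 10 were called between the weeks (*Ednrb* and *Uts2r*), both higher at 2 weeks, where 1.23% of all genes were called higher and 0.949% lower. *In vitro*, 2 were called (*Ednrb* and *Npr1*), both higher at 2 weeks, where 2.76% of all genes were called higher and 1.05% lower. The difference between the weeks in the *in vivo* against *in vitro* effect was called for *Uts2r* (log2 3.73 ± 0.48) and for no other of the 10, where 0.573% of all genes were called higher and 1.15% lower.

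The calls differed in how often they recurred over the other settings of the analysis. These refit the same 8 libraries for genes chosen with their values known, so a call that held is a description. *Ace*, *Ednrb* and *Npr3* were called in all 18 settings at both weeks, *Edn1* and *Ednra* in all 18 at 1 week and *Uts2r* in all 18 at 2 weeks. The *Nppa* call at 2 weeks held in 9 of 18 and was lost when any library other than the 2 *in vivo* ones of that week was left out (log2 -2.10 to -1.82). At 1 week it was lost without either *in vivo* library (-2.84 and -3.16) or without the second *in vitro* library (-2.86). *Agtr1a* at 1 week lost its call without any 1 of the 4 libraries of that week (log2 -1.21 to -1.08) and *Npr1* without either *in vivo* library (1.40 and 1.51). The calls of *Edn1* and *Ednra* at 2 weeks were lost when the scaling between libraries was undone (log2 0.87 and 0.91), a step that moved the median of all genes to -0.34 at 1 week and -0.32 at 2 weeks. With a pseudocount of 1 the 1 week calls of *Uts2r* (log2 0.52), *Npr1* (0.98) and *Agtr1a* (-0.74) were lost. Fitted on only the 4 libraries of the week, *Npr1* and *Uts2r* lost their calls at 1 week and *Agtr1a*, *Edn1* and *Nppa* at 2 weeks. Of the calls between weeks, *Ednrb* *in vivo* was lost without any 1 library of either *in vivo* group or of *in vitro* at 2 weeks (1.15 to 1.22) and *Ednrb* *in vitro* without either 2 week library of the culture (1.56 and 1.62). *Uts2r* *in vivo* was lost without any 1 *in vivo* library (3.54 to 3.92). *Npr1* *in vitro* was lost without either *in vivo* library at 1 week, the second *in vitro* library at 1 week or either *in vitro* library at 2 weeks (1.22 to 1.53). The difference of *Uts2r* between the weeks held its call in 4 of 17 settings and lost it without any 1 of the 8 libraries (3.54 to 3.92).

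**Figure D3:**
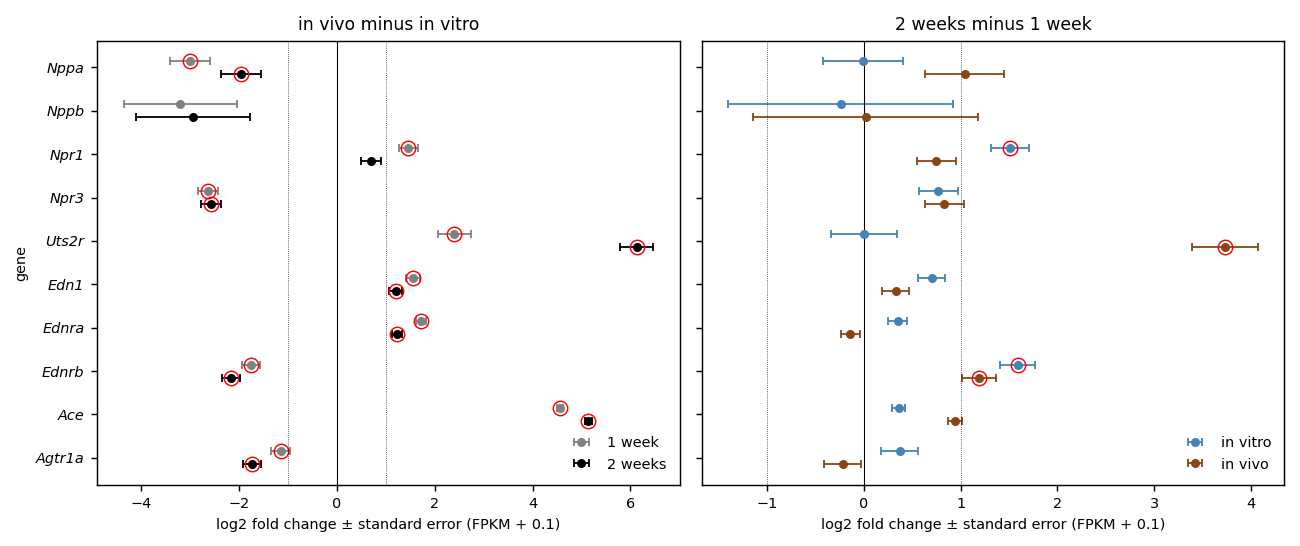
Log2 fold change of the 10 genes on the FPKM + 0.1 scale, *in vivo* against *in vitro* at each week (left) and 2 weeks against 1 week in each setting (right). Points are fitted values of 2 against 2 libraries, bars are ± 1 standard error, red rings mark calls and dotted lines mark a log2 change of 1, and *Ace* at 4.56 and 5.14 has the narrowest bars while *Nppb* at -3.20 and -2.94 has the widest.

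The rest of these peptide systems was covered by a list of 58 further genes, of which 37 were tested and 6 were at 0 in all libraries (*Cyp11b2*, *Kng1*, *Avpr1b*, *Kel*, *Ctsg* and *Uts2b*). *In vivo* against *in vitro* at 1 week, 6 of the 37 rose (*Aplnr*, *Bdkrb1*, *Bdkrb2*, *Calca*, *Pde9a* and *Ramp2*) and 3 fell (*Adm2*, *Corin* and *Edn2*), where 7.79% of all tested genes were called higher and 5.07% lower, with a median log2 difference of 0.06 over the list and -0.01 over all tested genes. At 2 weeks 7 rose (*Aplnr*, *Bdkrb2*, *Ecel1*, *Nppc*, *Pcsk6*, *Pde9a* and *Ramp2*) and 3 fell (*Adm2*, *Apln* and *Edn2*), against 9.02% and 8.05% of all genes, with medians of 0.07 and -0.00. With a pseudocount of 1 the calls of *Bdkrb2*, *Calca*, *Corin* and *Edn2* at 1 week and of *Adm2*, *Bdkrb2*, *Ecel1* and *Nppc* at 2 weeks were lost. With the scaling undone the split became 6 up and 7 down at 1 week and 7 up and 6 down at 2 weeks. Of the 37, 7 reached 0.5 FPKM in the libraries of 1 setting alone, *in vivo* for *Aplnr*, *Bdkrb1*, *Bdkrb2*, *Ecel1* and *Nppc* and in culture for *Adm2* and *Edn2*. Such genes entered the fit because they were high in that setting, and all 7 were among those called. The counts are therefore a description, nothing is read from them, and no p-value is given for these 7.

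**Figure D4:**
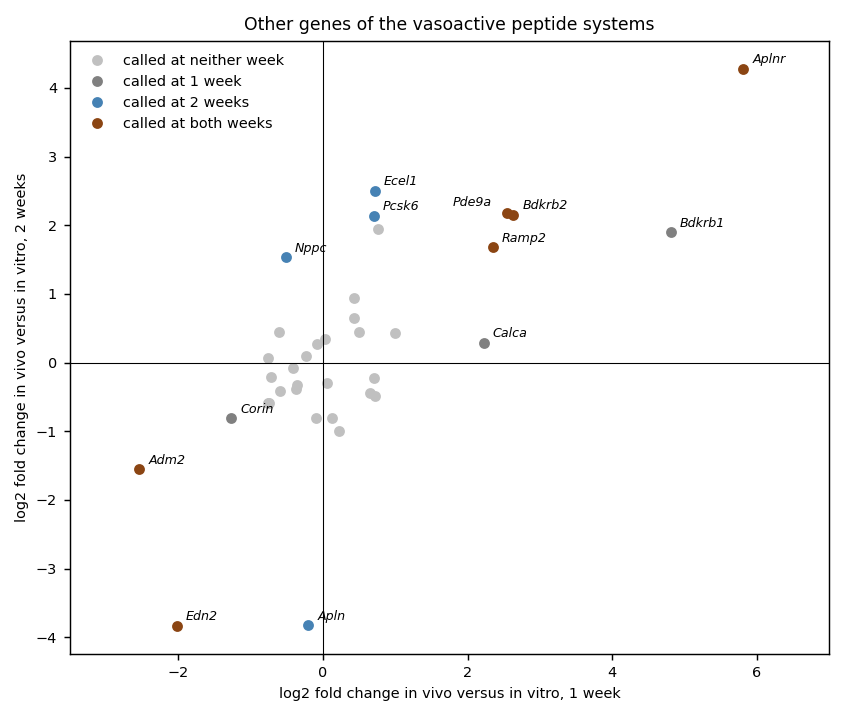
Log2 fold change *in vivo* against *in vitro* at 1 week (horizontal axis) and 2 weeks (vertical axis) of the 37 other tested genes of the peptide systems, with 1 point per gene, coloured by the week in which it was called. *Aplnr* (5.81 and 4.28) lies farthest up on both axes, and *Edn2* (-2.02 and -3.83) and *Apln* (-0.20 and -3.82) lie lowest at 2 weeks.

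Among the other natriuretic genes, the proteases that cut the precursors stood apart from one another. *Corin*, the protease that activates the *Nppa* product, gave 0.917 and 0.682 FPKM *in vivo* and 2.09 and 2.01 FPKM *in vitro* at 1 week (log2 -1.27 ± 0.18, limma adjusted p = 0.0017), and 3.0 and 2.60 FPKM *in vivo* and 5.61 and 4.40 FPKM *in vitro* at 2 weeks, so its direction was that of *Nppa*. It was higher at 2 weeks than at 1 week in both settings (log2 1.70 ± 0.18 *in vivo*, limma adjusted p = 0.0026, and 1.24 ± 0.18 *in vitro*, 0.0051). *Pcsk6*, the convertase that activates corin, gave 20.4 and 22.6 FPKM *in vivo* and 13.0 and 13.3 FPKM *in vitro* at 1 week. Its values at 2 weeks were 53.5 and 56.7 FPKM *in vivo* and 12.0 and 12.9 FPKM *in vitro*. It was higher *in vivo* at 2 weeks (log2 2.14 ± 0.07, limma adjusted p = 2.5e-06), and its *in vivo* against *in vitro* effect differed between the weeks (log2 1.44 ± 0.11, limma adjusted p = 0.0024). *Furin*, which cuts the *Nppb* product, gave 19.6 to 28.0 FPKM *in vivo* and 12.8 to 15.8 FPKM *in vitro*, a log2 difference of 0.99 at 1 week and 0.43 at 2 weeks that was below the size needed for a call.

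*Nppc*, the C-type peptide gene, gave 0.246 and 0.221 FPKM *in vivo* and 0.312 and 0.450 FPKM *in vitro* at 1 week. The 2 week values were 1.45 and 1.56 FPKM *in vivo* and 0.486 and 0.423 FPKM *in vitro* (log2 1.53 ± 0.28 *in vivo* against *in vitro*, on 3 to 18 fragments a library). *Nppc* reached 0.5 FPKM *in vivo* alone. Its receptor gene *Npr2* was the most abundant natriuretic receptor gene, at 19.2 to 26.5 FPKM *in vivo* and 14.8 to 16.3 FPKM *in vitro*, with log2 differences of 0.43 at 1 week and 0.65 at 2 weeks that were too small to be called. The peptide-degrading proteases neprilysin (*Mme*, 0.479 to 1.07 FPKM) and insulin-degrading enzyme (*Ide*, 10.9 to 17.3 FPKM) were called in no comparison. Leaving out 1 library ended several of these calls. *Corin* at 1 week was lost without the second *in vivo* library (log2 -1.08) or either *in vitro* library of that week (-1.24 and -1.30). Between the weeks it was lost without any 1 library of the setting compared (1.51 to 1.89 *in vivo* and 1.06 to 1.41 *in vitro*). *Nppc* at 2 weeks was lost without any 1 library of that week (1.45 to 1.62), and the *Pcsk6* difference between the weeks without any 1 library other than the second *in vivo* one at 2 weeks (1.36 to 1.51).

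Downstream of the cyclic GMP made by these receptors, *Pde9a*, a cyclic GMP phosphodiesterase, gave 1.87 and 2.55 FPKM *in vivo* and 0.435 and 0.189 FPKM *in vitro* at 1 week. At 2 weeks these were 2.94 and 3.0 FPKM *in vivo* and 0.561 and 0.597 FPKM *in vitro*. It was higher *in vivo* at 1 week (log2 2.54 ± 0.31, limma adjusted p = 7.9e-04) and at 2 weeks (log2 2.18 ± 0.31, limma adjusted p = 0.0012). The first call was lost without the second *in vivo* library at 1 week (2.32) and the second without the first *in vitro* library at 2 weeks (2.14). The other tested genes of this group, *Prkg1*, *Pde3a* and *Pde5a*, were called in no comparison.

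In the endothelin system *Edn2*, the gene of a second endothelin, had its highest levels in culture. It had 1 to 5 fragments in the *in vivo* libraries, against 0.666 and 0.595 FPKM *in vitro* at 1 week and 4.35 and 4.02 FPKM at 2 weeks. It was lower *in vivo* at 1 week (log2 -2.02 ± 0.35) and at 2 weeks (log2 -3.83 ± 0.35), opposite to *Edn1*. *Edn2* reached 0.5 FPKM in culture alone, and its 1 week call was lost with no filter on low values. It was also lost without any 1 library of that week or of *in vitro* at 2 weeks (-2.20 to -1.83). The call of its rise in culture between the weeks (log2 2.55 ± 0.35) was lost without any 1 *in vitro* library (2.48 to 2.62). *Ece1*, the enzyme that cuts out the active endothelin, stayed between 26.7 and 37.9 FPKM in all 8 libraries and was not called. *Ecel1*, an endothelin-converting enzyme-like gene, gave 0.683 and 0.983 FPKM *in vivo* and 0.0620 and 0.0630 FPKM *in vitro* at 2 weeks (log2 2.50 ± 0.37), on 3 fragments in each cultured library. It reached 0.5 FPKM *in vivo* alone and lost its call with a pseudocount of 1 (0.78). *Edn3* had 0 to 3 fragments.

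Of the other renin-angiotensin genes, the precursor gene *Agt* was low everywhere, at 0.893 to 2.71 FPKM, and called in no comparison. The renin gene *Ren1* had 1 to 6 fragments in each *in vivo* library and 0 in culture. By the limit of 3 fragments its mean *in vivo* at 2 weeks was at least 2.04-fold higher, and 1.66-fold from the lower library alone. The receptor genes *Agtr1b*, *Agtr2* and *Mas1* had 0 to 10 fragments in any library, so *Agtr1a* was the angiotensin receptor gene with appreciable levels. *Enpep*, the aminopeptidase that trims angiotensin II, rose in culture between the weeks from 5.05 and 5.43 FPKM to 13.7 and 11.4 FPKM (log2 1.24 ± 0.14, limma adjusted p = 0.0016), a call lost without any 1 *in vitro* library (1.11 to 1.37), and was 5.54 to 7.04 FPKM *in vivo*. *Atp6ap2*, the prorenin receptor gene (50.8 to 74.9 FPKM), and *Agtrap*, whose product binds the angiotensin II receptor (11.5 to 17.2 FPKM), were called in no comparison. *In vivo* against *in vitro*, 7.79% of all tested genes were called higher and 5.07% lower at 1 week, and 9.02% and 8.05% at 2 weeks. Of the 7 tested genes of this group 0 were called by limma at either week, from which nothing is read for so few genes. Several of the 7 had an adjusted p below 0.01. The nearest to a call was *Enpep* at 2 weeks (log2 -0.99, limma adjusted p = 0.0011), whose difference was below the size that a call needed.

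The kinin receptor genes were higher *in vivo*, as was *Ace*, whose product also degrades bradykinin. *Bdkrb1*, the injury-induced receptor, gave 2.26 and 3.21 FPKM *in vivo* and 0 in both cultured libraries at 1 week. By the same limit its mean was at least 19.8-fold higher, and 16.4-fold from the lower library alone. It gave 2.16 and 0.694 FPKM *in vivo* and 0.151 and 0.410 FPKM *in vitro* at 2 weeks (log2 1.90, not called). *Bdkrb2*, the constitutive receptor, had 23 to 31 fragments *in vivo* and 0 to 3 *in vitro* (log2 2.63 ± 0.44 at 1 week and 2.15 ± 0.44 at 2 weeks). Both genes reached 0.5 FPKM *in vivo* alone. The *Bdkrb1* call was lost without the second *in vivo* library at 1 week (4.56), and the *Bdkrb2* calls without any 1 library of the week compared (2.51 to 2.75 and 2.04 to 2.26). The kallikrein gene *Klk1* spread widely between the *in vivo* libraries at 2 weeks (65.0 and 19.0 FPKM) and was not called.

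In the adrenomedullin and CGRP system, *Ramp2*, the subunit that makes the shared receptor selective for adrenomedullin, gave 7.58 and 7.37 FPKM *in vivo* and 1.46 and 1.32 FPKM *in vitro* at 1 week. Its values at 2 weeks were 11.2 and 14.9 FPKM *in vivo* and 3.96 and 3.97 FPKM *in vitro*. It was higher *in vivo* at both weeks (log2 2.35 ± 0.14, limma adjusted p = 2.9e-05, and 1.68 ± 0.14, 9.7e-05) and was called in all 18 settings at each. Its partner *Calcrl* stayed between 6.37 and 8.35 FPKM in all libraries, and the peptide gene *Adm* gave 16.1 to 18.5 FPKM *in vivo* and 23.3 to 27.0 FPKM *in vitro*, and neither was called. *Adm2*, a related peptide gene, had 1 to 3 fragments *in vivo* against 30 and 32 *in vitro* at 1 week (log2 -2.54 ± 0.32) and 7 in each cultured library at 2 weeks (log2 -1.55 ± 0.32). It reached 0.5 FPKM in culture alone. *Calca*, the CGRP gene, had 9 and 19 fragments *in vivo* and 2 and 1 *in vitro* at 1 week (log2 2.22 ± 0.43, limma adjusted p = 0.0057). *Ackr3*, a scavenging receptor for adrenomedullin and chemokines, was 19.9 and 20.9 FPKM *in vivo* at 1 week and 45.2 and 47.5 FPKM at 2 weeks (log2 1.18 ± 0.07, limma adjusted p = 5.4e-04). In culture it was 15.7 and 14.4 FPKM and then 24.2 and 24.2 FPKM (log2 0.68 ± 0.07, not called). *Ramp1*, the CGRP receptor subunit, was 2.20 and 2.54 and then 5.60 and 4.46 FPKM *in vivo* (log2 1.05 ± 0.14, limma adjusted p = 0.0047). In culture *Ramp1* was 3.31 and 3.06 and then 5.22 and 5.35 FPKM (log2 0.71 ± 0.14, not called). Both genes were thus higher at 2 weeks in both settings, and the difference of the effect between weeks was called for neither. The *Adm2* call was lost at 1 week without the second *in vitro* library (-2.48) and at 2 weeks without any 1 library of that week or either *in vitro* library at 1 week (-1.55 to -1.54). The *Calca* call was lost without any 1 library of its week or the second *in vitro* library at 2 weeks (1.82 to 2.62). That of *Ackr3* was lost without the first *in vivo* library at 1 week (1.14), and that of *Ramp1* without any 1 library other than the second *in vivo* one at 2 weeks (0.89 to 1.15).

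The apelin receptor gene had the largest log2 difference of the list at both weeks with a pseudocount of 0.1. *Aplnr*, the apelin receptor gene, gave 8.38 and 5.60 FPKM *in vivo* and 0 and 0.0543 FPKM *in vitro* at 1 week. The 2 week values were 3.52 and 3.65 FPKM *in vivo* and 0.156 and 0.0398 FPKM *in vitro* (log2 5.81 ± 0.38 at 1 week and 4.28 ± 0.38 at 2 weeks). The gene reached 0.5 FPKM *in vivo* alone, and with its cultured libraries at or near 0 the size depended on the setting, from 2.94 to 8.18 at 1 week and 2.06 to 5.30 at 2 weeks over the 18 alternatives. *Apln*, its peptide gene, was similar in both settings at 1 week, at 4.80 and 3.29 FPKM *in vivo* and 4.29 and 4.89 FPKM *in vitro*. At 2 weeks it gave 1.66 and 1.87 FPKM *in vivo* and 31.3 and 22.1 FPKM *in vitro* (log2 -3.82 ± 0.22, limma adjusted p = 2.0e-05). The effect on *Apln* differed between the weeks (log2 -3.62 ± 0.31, limma adjusted p = 0.0034), a call that was lost without any 1 of the 8 libraries (-3.89 to -3.36). Receptor mRNA was therefore found in the heart and, at 2 weeks, peptide mRNA mostly in culture. *Avpr1a*, the vasopressin receptor gene, gave 0.853 to 1.73 FPKM in all libraries and was not called. The endothelial markers, given above, also moved with *Aplnr* and *Ramp2* between heart and culture, and their part in these results was not tested.

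Between the weeks, 5 genes of the list were called *in vivo*, all of them higher at 2 weeks (*Ackr3*, *Corin*, *Nppc*, *Pcsk6* and *Ramp1*), against 1.23% of all tested genes called higher and 0.949% lower, with a median log2 difference of 0.14. In culture 6 rose (*Apln*, *Calca*, *Corin*, *Edn2*, *Enpep* and *Ramp2*) and 1 fell (*Adm2*), against 2.76% and 1.05% of all genes, with a median of 0.54 against 0.02 over all tested genes. None of these calls between weeks held in all 18 settings. Of those not described above, *Apln* in culture (log2 2.49 ± 0.22, limma adjusted p = 8.0e-04) was lost without the first *in vitro* library at 1 week (2.40), and *Pcsk6* *in vivo* (1.35 ± 0.07, limma adjusted p = 5.3e-04) without the first *in vivo* library at 1 week (1.28). *Ramp2* in culture (1.45 ± 0.14, limma adjusted p = 9.9e-04) was lost without the second *in vitro* library at 1 week or either at 2 weeks (1.39 to 1.45). *Nppc* *in vivo* (2.27 ± 0.28) was lost without any 1 *in vivo* library or either *in vitro* library at 2 weeks (2.21 to 2.32). In culture *Calca* (2.65 ± 0.43, limma adjusted p = 0.0065) was lost without any 1 library other than the second *in vivo* one at 2 weeks (2.32 to 2.97), and *Adm2* (-1.76 ± 0.32) without any 1 other than the first *in vivo* one at 2 weeks (-1.83 to -1.70).

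The genes whose pattern over the 8 libraries was most like that of each of the 10 were found by Pearson correlation of log2(FPKM + 0.1) among 11443 protein-coding genes, as a description over 8 points that fall into 4 groups and share their libraries. For *Ace* they were *Lrg1*, *Sulf2* and *C4b* (r = 0.999 each), for *Uts2r* *Foxc1* (0.998), *Olfm1* (0.997) and *Pcsk6* (0.995), and for *Ednra* *Lrrc17* (0.998), *Csrp2* and *Il13ra1* (0.996 each). For *Edn1* they were *Fam3c* (0.995), *Tril* (0.994) and *Golph3* (0.993). Those nearest to the genes that were lower in the heart were *Ctdspl* (0.997), *Sorbs3* (0.996) and *Plekhf1* (0.995) for *Npr3*, *Ascc1* and *Cox5a* (0.996 each) and *Sdsl* (0.994) for *Agtr1a*, and *Net1* and *Aldh2* (0.992 each) and *Ppp1r3c* (0.991) for *Ednrb*. *Npr1* had *Rps15* (0.999), *Gnb2* (0.991) and *Rps16* (0.990). *Nppa* had *Sesn1* (0.994), *Cobll1* (0.986) and *Gab1* (0.981), whereas the neighbouring *Nppb* correlated with *Nppa* at 0.642 and best with *Slc2a9* (0.957), *Ap3s2* (0.943) and *Upf3b* (0.941). As many as 769 genes exceeded 0.95 for *Ace* and 1 for *Nppb*, so a high value is common for the genes that separate heart from culture.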

How the data were processed

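RNA of eGFP+ cells sorted from hearts or cultures was sequenced in 8 libraries, 2 in each of 4 groups taken from the labels. The authors deposited FPKM per gene, and the submitters' processing notes name CASAVA, HISAT2 2.0.5 and mm10, while the counter, its strand setting and the annotation release are not given in the sources used here. FPKM times gene length gave whole multiples of 1 step for 100.0% of values (tolerance 0.05 of a step), so fragments per gene were recovered. The implied library sizes were 0.863 to 0.915 of the counted fragments *in vivo* and 1.09 to 1.15 *in vitro*, so the deposited FPKM had been scaled between libraries. No column lacked a sample.

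All 15708 genes with at least 0.5 FPKM in 2 libraries were fitted as log2(FPKM + 0.1) in limma 3.58.1 (R 4.3.3; variance trend, 4 groups, 8 libraries), with Benjamini-Hochberg adjustment over all tested genes. This fold understates changes of low genes. Calls needed an adjusted p below 0.01 and a log2 change above 1. The step was also run on simulated data with the same spread for every gene, so that run does not measure the error rate here. The 10 genes, the list of 58 further genes (1 more is not reported here), the marker lists and the tests were chosen with earlier results of these data known. All 10 are named with their values, and a gene of the list is named where it was called in a comparison, acts directly on one of the 10, or is a ligand or receptor at 0. The 3 most correlated protein-coding genes with a mean of at least 1 FPKM are given for each. Alternatives were another pseudocount, filter, variance model, scaling, voom on recovered fragments, a replicate block, the 4 compared libraries alone and leaving out each library. Intervals below 3 fragments cover counting error only.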

Additional observations from a re-analysis of the deposited data

Results flagged for a closer look

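Among the 10 genes and the 37 tested genes of the list, 3 had an *in vivo* against *in vitro* difference that was called as differing between the weeks. Of all 15708 tested genes 271 were called so, 0.573% higher and 1.15% lower, and nothing is read from the count of 3. That of *Uts2r* was larger at 2 weeks by 3.73 on the log2 scale. With the gene at 0 in all cultured libraries, this equals its change between the weeks *in vivo*. The difference of *Pcsk6* was larger at 2 weeks by 1.44 on the log2 scale. The difference of *Apln* shifted by -3.62, the gene being similar in both settings at 1 week and lower *in vivo* at 2 weeks. As given above, the *Uts2r* and *Apln* calls were lost without any 1 of the 8 libraries. The *Pcsk6* call was lost without any 1 library other than the second *in vivo* one at 2 weeks. With 2 libraries in a group, no single library could be tested against its group.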

How the results depend on the processing

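Of 890 recomputed log2 differences of the 10 genes, 808 kept direction and side of the threshold, 67 lost a call, 1 gained one and 14 changed sign, all of them uncalled. The sign changes were *Npr3* in the difference between weeks (-0.31 with a pseudocount of 1, and -0.067 to 0.19 leaving out 1 library, against 0.06), *Nppb* between the weeks *in vivo* (-0.0134 without the scaling, -0.0163 with quantile normalization, -1.46 to 1.51 leaving out 1 library), *Nppb* between the weeks *in vitro* (-0.57 to 0.0915) and in the difference between weeks (-1.22 to 1.75), *Nppa* between the weeks *in vitro* (-0.15 to 0.14) and *Agtr1a* between the weeks *in vivo* (-0.46 to 0.0129). *Nppb* rests on 33 fragments or fewer in each library, which limits all its values.

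The *in vivo* against *in vitro* comparisons were the steadier ones. Of the 10 genes, 9 were called at 1 week (6 with a pseudocount of 1, 7 with only the 4 libraries compared, 6 to 9 leaving out 1 library). Of all tested genes 2020 were called at 1 week (1406, 1688 and 1448 to 2044 in these settings). At 2 weeks 8 of the 10 were called (7 without the filter or without the variance trend, 6 without the scaling, 5 with only the 4 libraries compared, 7 to 8 leaving out 1 library). Of all tested genes 2682 were called at 2 weeks (2625, 2649, 3119, 1888 and 2011 to 2548 in these settings). The 10 were chosen from these values, so their counts are a description. In the further list, 9 were called at 1 week (5 with a pseudocount of 1, 13 without the scaling, 5 with only the 4 libraries, 3 to 9 leaving out 1 library) and 10 at 2 weeks (6 with a pseudocount of 1, 6 to 10 leaving out 1 library). The cause of these shifts was not tested, other than that fewer libraries give less to estimate the spread.

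Between the weeks, fits of only the 4 libraries compared called 0 genes *in vivo* and 0 *in vitro* in limma (4198 and 5992 at an unadjusted p below 0.05), hence 0 of the 10 and 0 of the list, against 342 and 599 genes in all 8. Leaving out 1 library gave 11 to 221 genes *in vivo* (11 without *in vivo* replicate 1 of 1 week) and 198 to 555 *in vitro*. Of the 10, 2 were called *in vivo* (1 with a pseudocount of 0.01 or 1, without the filter, without the variance trend or with the replicate block, and 0 to 2 leaving out 1 library) and 2 *in vitro* (1 without the variance trend, 0 to 2 leaving out 1 library). Of the list, 5 were called *in vivo* (3 without the filter or with the replicate block, 0 to 4 leaving out 1 library) and 7 *in vitro* (4 with a pseudocount of 1, 3 without the filter, 1 to 7 leaving out 1 library).

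The difference between weeks called 271 genes, against 72 without the filter, 71 without the variance trend, 27 with the replicate block, 473 with voom and 2 to 86 leaving out 1 library. Of the 10 it called 1, and 0 with a pseudocount of 0.01, without the filter, with a filter at 1 FPKM, with the replicate block, with voom or without any 1 library. Of the list it called 2, and 0 without the variance trend, 1 with the replicate block and 0 to 1 leaving out 1 library. Same-numbered libraries did not deviate together (correlations of -0.048 to -0.011 over 15708 genes), so the numbers were not taken as pairs. The 2 libraries of each group differed by more than counting error (mean chi-square over genes of 4.52 to 9.83).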
